A study of Mus musculus with 26 samples.

Results

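The stromal fraction of the wild-type mouse mammary gland was set against its epithelium at 12 months of age. The comparison takes the libraries that the labels place in the wild-type, 12-month, stromal group (pools A1 and A2) and sets their mean against the mean of the luminal and basal groups of the same pools, so that each epithelial fraction weighs the same. That is 6 of the 26 libraries of the series, 2 stromal and 4 epithelial. All mice were of the B6.129S1 strain. The wild-type groups used here carried no engineered allele named in the labels, were at 12 or 3 months of age and had 2 libraries each, and the rest of the series came from mice null for Snai2 (also called Slug, removed with a LacZ allele). Each library is a pool of cells from 3 mice, taken from glands that were minced, frozen and later dissociated, and then sorted by flow cytometry on the surface proteins EpCAM and CD49f. The labels' protocols name no further gate, so the fraction called stromal is what that sort left as stromal, with no stated removal of blood or vessel cells. Pools A1 and A2 each gave all 3 fractions, so libraries of 1 pool share their mice. Where a pair of values is given for a fraction, pool A1 stands before pool A2.

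The mammary gland is a branching epithelium set in connective and fat tissue. Its ducts have an inner luminal layer, which makes milk, and an outer basal layer of contractile myoepithelial cells that rests on a basement membrane. Around them stromal fibroblasts build the collagen matrix and send growth factors to the epithelium, among vessels, nerves, fat and immune cells. Fibroblasts and basal cells share some genes of the mesenchymal programme, among them Snai2, a zinc-finger repressor that binds the DNA letters CAGGTG and is known for switching off the epithelial cadherin gene.

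Libraries of the comparison held 3203664 to 8475262 counts, with 17907 to 19282 genes seen at least once. Levels below are in CPM, counts divided by the size of each library after scaling for its composition, and levels of different genes are not compared because CPM takes no account of gene length. A fold change is the log2 ratio of stroma over epithelium from edgeR ± its standard error, and a call means a p under 0.05 in edgeR's quasi-likelihood test after Benjamini-Hochberg adjustment over the 14990 genes tested. Where the libraries of a fraction together held 3 counts or fewer, a fold is given over the other fraction, or as a ratio of counts. In bulk libraries fewer cells of a type and less RNA per cell cannot be told apart. Mitochondrial ribosomal RNA took 18.4% and 27.8% of the stromal counts, against 34.6% and 48.0% of the luminal and 23.7% and 38.4% of the basal counts. Pool A1 was also rich in milk genes in every fraction. Csn2, the gene of beta-casein, had 798 and 34.6 CPM in stroma, against 19432 and 163 CPM in luminal and 6775 and 47.2 CPM in basal cells.

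Markers of stroma and of epithelium were looked at first. Col3a1, the chain of type III collagen in loose connective tissue, lies on chromosome 1, positions 45311538 to 45349706 on the plus strand (GRCm38). It had 2215 and 2427 CPM in stroma, against 21 and 7.27 CPM in luminal and 81 and 71.4 CPM in basal cells. Both stromal libraries stood above all 4 epithelial ones, and the luminal libraries were the lowest (log2 fold change 6.15 ± 0.31, adjusted p = 9.4e-10, about 70.8-fold higher in stroma). Serpinf1, which encodes the secreted inhibitor of vessel growth PEDF, lies on chromosome 11, positions 75409769 to 75422701 on the minus strand. Its levels were 1101 and 918 CPM in stroma, against 9.72 and 3.27 CPM in luminal and 55.5 and 47.7 CPM in basal cells, again without overlap (log2 fold change 5.79 ± 0.30, adjusted p = 1.5e-09). Epcam, the epithelial adhesion molecule that the sort itself used, lies on chromosome 17, positions 87635979 to 87651129 on the plus strand. Its RNA was at 67.9 and 185 CPM in stroma, against 1091 and 871 CPM in luminal and 412 and 434 CPM in basal cells (log2 fold change -2.35 ± 0.36, adjusted p = 2.0e-04). The stromal libraries were the lowest, and the library of pool A2 lay above that of A1. Without the stromal library of A2 the log2 fold change was -3.25, and without that of A1 it was -1.79. Because cells were chosen on EpCAM and on CD49f (encoded by Itga6), the levels of these genes check the sort and are no finding. Epcam is nevertheless counted below among the 16 luminal genes, and Itga6 among the 15 basal genes.

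**Figure D1:**
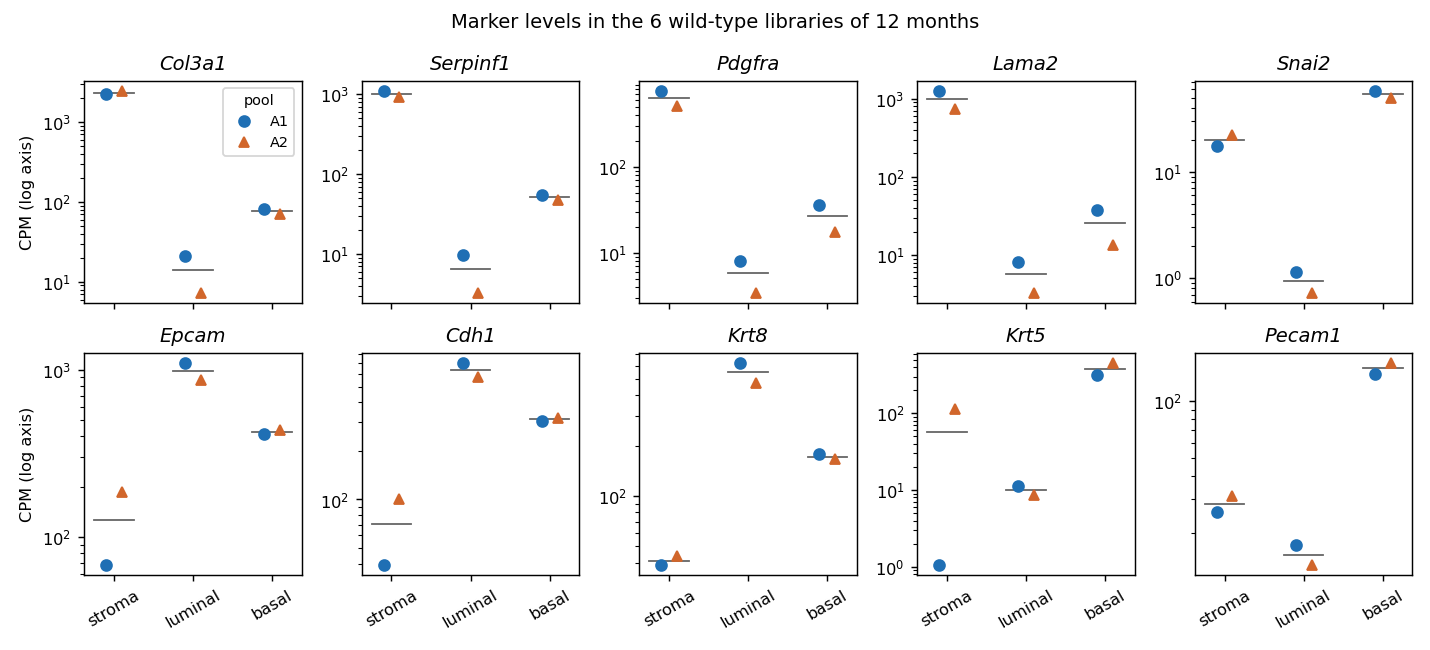
Levels of 10 marker genes in the 6 wild-type libraries of 12 months, in CPM on a log axis of its own for each gene; circles are pool A1, triangles pool A2 and the line is the mean of both. Col3a1, Serpinf1, Pdgfra and Lama2 are highest in stroma, Epcam, Cdh1 and Krt8 in luminal cells and Snai2, Krt5 and Pecam1 in basal cells, and Krt5 parts the stromal libraries, with 1.05 CPM in pool A1 and 113 CPM in pool A2.

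The stromal libraries differed from each other in basal genes, and this bears on every result that sets stroma against basal cells. Krt5, a keratin of basal cells, had 1.05 and 113 CPM in stroma, against 11.2 and 8.54 CPM in luminal and 318 and 449.9 CPM in basal cells. Krt14, its partner, had 2.25 and 88.5 CPM in stroma, against 5.91 and 9.09 CPM in luminal and 302 and 391 CPM in basal cells. In pool A2 these keratins stood far above the luminal level, and in pool A1 below it. Summed over the 15 basal genes examined, the stromal libraries had 181 and 899.7 CPM, against 587 and 473 CPM in the luminal and 2935 and 3053 CPM in the basal libraries. Measured against the basal library of the same pool, the median basal gene stood at 2.56% in pool A1 (0% to 33.1%) and at 26.6% in pool A2 (20.3% to 63.0%). The 10 genes of the contractile apparatus had medians of 11.2% in A1 and 38.6% in A2. Without the stromal library of A2, 13 of the 15 basal genes were called lower in stroma and 1 higher, whereas 4 were lower and 1 higher with it and 2 and 2 without the library of A1. Counts of listed genes against basal cells are therefore given with and without it, and the part of basal cells in it was not tested.

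**Figure D2:**
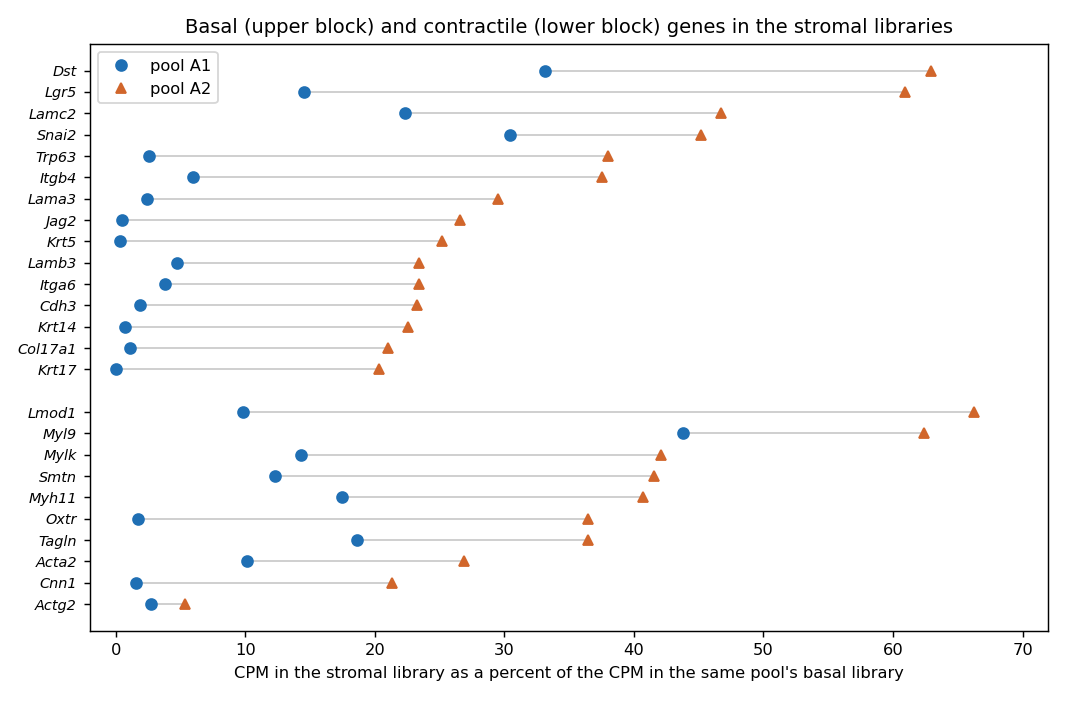
Level of 15 basal genes (upper block) and 10 contractile genes (lower block) in each stromal library, as a percent of the CPM in the basal library of the same pool; circles are pool A1 and triangles pool A2. For each gene the triangle lies to the right of the circle, with basal medians of 2.56% in A1 and 26.6% in A2.

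The basal libraries in turn held genes of blood vessels. Pecam1, the endothelial adhesion molecule CD31, had 25.8 and 31.2 CPM in stroma, against 17.2 and 13.4 CPM in luminal and 139 and 158 CPM in basal cells. The 16 endothelial genes together had 180.2 and 209 CPM in stroma, against 112 and 82 CPM in luminal and 771 and 1005 CPM in basal libraries. Thus 15 of the 16 were called lower in stroma than in basal cells, where 7.96% of all genes were, 14 without the stromal library of A2 and 13 without that of A1. The part of vessel cells in the difference between stroma and basal cells was not tested.

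Stroma and epithelium differed at 3881 of 14990 genes, of which 2351 were higher in stroma (15.7% of the genes tested) and 1530 lower (10.2%). Among them 1286 genes rose and 595 fell by more than 2 on the log2 scale. Of the calls, 2066 higher and 1382 lower ones had no overlap between the 2 stromal and the 4 epithelial libraries. The share without overlap among all genes tested was not counted, so these counts lend the calls no further weight. The median log2 fold change of all genes tested was -0.03. Leaving out either stromal library lowered the number of calls over all genes. Counts of listed genes without a stromal library are therefore to be read beside that loss. Leaving out the stromal library of A2 gave 3521 calls, 3025 of them shared with the full comparison. Leaving out that of A1 gave 2280 calls, of which 2194 were shared, and 72.6% of its calls were higher in stroma, against 60.6% with all libraries.

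Among the largest rises were genes that the epithelium hardly held. Zfp385b, a zinc-finger gene, had 126 and 43 counts in the stromal libraries and none in the 4 epithelial ones, at least 99.6-fold higher with the epithelium set at 3 counts in all. Adcy2, an adenylate cyclase, was likewise without a count in epithelium and at least 84.3-fold higher in stroma. Twist1, a transcription factor of mesenchyme, had 66.4 and 29.1 CPM in stroma, against 0 and 0 CPM in luminal and 1.5 and 0.905 CPM in basal cells (log2 fold change 5.4 ± 0.71, adjusted p = 2.1e-04 over basal cells, as the luminal libraries held no count). Ackr2, a decoy receptor that clears inflammatory chemokines, had 37.9 and 26.7 CPM in stroma, against 0 and 0 CPM in luminal and 0.90 and 0.517 CPM in basal cells (log2 fold change 5.60 ± 0.69, adjusted p = 6.9e-05 over basal cells). Lrrc15, a membrane protein known from matrix-making fibroblasts, had 50.2 and 56.3 CPM in stroma, against 0 and 0 CPM in luminal and 1.5 and 3.75 CPM in basal cells (log2 fold change 4.20 ± 0.37, adjusted p = 2.6e-06 over basal cells). For these genes the fold over the mean of both fractions depends on the count assumed for the empty luminal libraries and is not given. Rorb, a nuclear receptor, had 33 and 30.5 CPM in stroma, against 0.572 and 1.09 CPM in luminal and 0 and 0 CPM in basal cells (log2 fold change 5.22 ± 0.63, adjusted p = 1.6e-05 over luminal cells), here with no count in the basal libraries. Cdh9, a type II cadherin, and Tmem100, a small membrane protein of the BMP response in vessels, were 5.85 ± 0.69 and 5.37 ± 0.50 higher than in basal cells on the log2 scale. Slitrk1 had 192 counts in stroma and 1 in epithelium (a ratio of 339, counting interval 60.2 to 13474), and Lonrf2 had a ratio of 240 (42.4 to 9564). These intervals cover counting error only.

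The 10 largest falls were those of Sptlc3, Rab27b, Krt7, Tspan1, Ggt1, Krt6a, Arhgef38, Bdh1, Ly75 and Pak6. Sptlc3, a subunit of the enzyme that starts sphingolipid synthesis, had 2 counts in stroma and 219 in epithelium (a ratio of 61.9 in favour of epithelium, counting interval 16.9 to 515). Rab27b, a GTPase of secretory vesicles, had 1.2 and 0.53 CPM in stroma, against 24.2 and 26.4 CPM in luminal and 9.6 and 8.54 CPM in basal cells (log2 fold change -4.07 ± 0.47, adjusted p = 7.2e-06). Krt7, a keratin of simple epithelia, had 0.449 and 4.59 CPM in stroma, against 88.9 and 78.2 CPM in luminal and 11.1 and 15.6 CPM in basal cells (log2 fold change -3.79 ± 0.66, adjusted p = 0.0017). Tspan1, a tetraspanin, had 0.30 and 1.41 CPM in stroma, against 23.8 and 35.1 CPM in luminal and 2.7 and 6.08 CPM in basal cells (log2 fold change -3.80 ± 0.60, adjusted p = 2.0e-04). In each of these the stromal libraries were the lowest of the 6, and the luminal libraries were above the basal ones. Ggt1, which breaks down glutathione, Krt6a, Arhgef38, Bdh1, Ly75 and Pak6 had log2 fold changes of -3.94 ± 0.69, -3.84 ± 0.77, -3.75 ± 0.83, -3.71 ± 0.57, -3.70 ± 0.65 and -3.70 ± 0.73. Ly75, an endocytic receptor also known as DEC-205, had 0 and 2.12 CPM in stroma, against 10.5 and 14.9 CPM in luminal and 13.8 and 13.8 CPM in basal cells, so that both fractions held it at similar levels.

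Genes of fibroblasts were higher in stroma throughout the list examined. All 18 rose against the mean of the epithelium, with a median log2 fold change of 5.27, beside 15.7% and -0.03 for all genes tested. Pdgfra, the receptor for platelet-derived growth factor that marks fibroblasts, had 758 and 512 CPM in stroma, against 8.2 and 3.45 CPM in luminal and 36.3 and 17.5 CPM in basal cells (log2 fold change 5.68 ± 0.32, adjusted p = 6.2e-09). Cd34, a surface sialomucin of stromal progenitors, had 391 and 327 CPM in stroma, against 2.86 and 4.0 CPM in luminal and 36.9 and 40.1 CPM in basal cells (log2 fold change 4.96 ± 0.20, adjusted p = 1.3e-10). Thy1 had 121 and 290.3 CPM in stroma, against 0.572 and 0.909 CPM in luminal and 12.3 and 16 CPM in basal cells (log2 fold change 5.96 ± 0.32, adjusted p = 2.9e-09). The stromal libraries stood above every epithelial library for each of these, and Thy1 was higher in pool A2 while Pdgfra was higher in A1. Dpp4 and Pi16, which mark a fibroblast subset of the outer connective tissue, had 282 and 238 CPM and 370.3 and 373 CPM in stroma (log2 fold change 5.51 ± 0.66, adjusted p = 3.9e-04 and log2 fold change 6.20 ± 0.33, adjusted p = 6.2e-09). Vim, the intermediate filament of mesenchymal cells, was higher in basal than in luminal cells, with 2317 and 1657 CPM in stroma, against 37.8 and 17.3 CPM in luminal and 382 and 386 CPM in basal cells (log2 fold change 4.27 ± 0.26, adjusted p = 5.7e-09). Against basal cells alone 16 of the 18 were called, and as many on leaving out either stromal library, S100a4 and Pdpn being the exceptions at log2 fold changes of 1.58 ± 0.97 and 0.69 ± 0.37.

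Collagens of the fibrous matrix were higher in stroma. Of 14 genes of fibrillar and fibril-associated collagens and their partners, 12 rose (median log2 fold change 5.61) and no member fell. Col1a1, the main chain of type I collagen, had 1259 and 1543 CPM in stroma, against 15.8 and 7.82 CPM in luminal and 57.9 and 42.4 CPM in basal cells (log2 fold change 5.85 ± 0.29, adjusted p = 7.4e-10). Col5a2, which helps to start type I fibrils, had 250.3 and 265 CPM in stroma, against 1.53 and 2.36 CPM in luminal and 19.5 and 17.7 CPM in basal cells (log2 fold change 5.41 ± 0.22, adjusted p = 1.3e-10). Col6a1, of the beaded filaments around cells, had 436 and 420.2 CPM in stroma, against 4.19 and 3.45 CPM in luminal and 30.9 and 23.2 CPM in basal cells (log2 fold change 5.4 ± 0.22, adjusted p = 1.3e-10). For each, both stromal libraries lay above all epithelial ones, and the basal libraries lay above the luminal ones. Tnxb, a tenascin that spaces collagen fibrils, rose by 5.90 ± 0.25, and Fn1, fibronectin, by 6.02 ± 0.43 on the log2 scale. The exceptions were Col12a1 and Col16a1. Col12a1 had 65.9 and 133 CPM in stroma, against 12.8 and 8.54 CPM in luminal and 244 and 153 CPM in basal cells and was called against luminal cells only (adjusted p = 0.053 against the epithelium). Col16a1, with 13 and 30 CPM in stroma, against 3.62 and 9.81 CPM in luminal and 42 and 76.2 CPM in basal cells, was lower in stroma than in basal cells (log2 fold change -1.48 ± 0.45, adjusted p = 0.039).

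Enzymes that finish collagen followed the collagens. All 14 measured members rose, with a median of 3.39. Loxl1, a lysyl oxidase that cross-links elastin and collagen, had 74.2 and 75.6 CPM in stroma, against 0 and 0.364 CPM in luminal and 2.7 and 1.55 CPM in basal cells (log2 fold change 5.24 ± 0.45, adjusted p = 1.3e-06 over basal cells). Lox had 241 and 165 CPM in stroma, against 3.05 and 2.18 CPM in luminal and 13.8 and 5.3 CPM in basal cells (log2 fold change 5.39 ± 0.29, adjusted p = 2.3e-09). Pcolce, which speeds removal of the procollagen tail, had 125 and 159 CPM in stroma, against 6.1 and 6.0 CPM in luminal and 13.2 and 11.8 CPM in basal cells (log2 fold change 4.03 ± 0.22, adjusted p = 1.5e-09). Adamts2, the protease that removes the other end, rose by 4.68 ± 0.27. The smallest change was that of Plod1, a lysyl hydroxylase with 31.9 and 24.4 CPM in stroma, against 13.5 and 12.7 CPM in luminal and 24.9 and 26.5 CPM in basal cells (log2 fold change 0.61 ± 0.22, adjusted p = 0.049). Its stromal and basal libraries overlapped, and the call was lost with the pool as a replicate block (0.60, adjusted p = 0.050).

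Small proteoglycans and matricellular proteins rose in 18 of 23 cases, and no member fell (median 3.67). Dcn, decorin, had 8646 and 6398 CPM in stroma, against 244 and 333 CPM in luminal and 382 and 229.7 CPM in basal cells (log2 fold change 4.66 ± 0.27, adjusted p = 3.4e-09). Thbs2, a thrombospondin that binds matrix proteases, had 525 and 346 CPM in stroma, against 6.48 and 5.09 CPM in luminal and 16.2 and 12.3 CPM in basal cells (log2 fold change 5.59 ± 0.25, adjusted p = 3.3e-10). Aspn and Sparcl1 rose by 4.85 ± 0.30 and 3.87 ± 0.23 on the log2 scale. Several members were shared with basal cells. Sparc, which binds collagen and calcium, had 1820 and 2234 CPM in stroma, against 49.6 and 37.8 CPM in luminal and 956 and 1266 CPM in basal cells and was not called against basal cells (log2 fold change 0.87 ± 0.33, adjusted p = 0.09). Fmod, fibromodulin, had 12.6 and 18.2 CPM in stroma, against 0.572 and 0.182 CPM in luminal and 88.2 and 54.2 CPM in basal cells, which put it below basal cells (log2 -2.20 ± 0.50, adjusted p = 0.01) and above luminal ones (log2 5.29 ± 0.83, adjusted p = 4.4e-04). Elastic fibre genes gave 10 higher and 1 lower of 13 (median 2.67). Mfap5, of the microfibrils, had 316 and 303 CPM in stroma, against 0.191 and 1.64 CPM in luminal and 12 and 6.73 CPM in basal cells (log2 fold change 6.73 ± 0.32, adjusted p = 7.4e-10). Ltbp4, which holds latent TGF-beta on those fibrils, had 421 and 354 CPM in stroma, against 12.8 and 5.27 CPM in luminal and 92.7 and 119 CPM in basal cells (log2 fold change 3.65 ± 0.26, adjusted p = 3.0e-08). Ltbp3 was the member called lower, by a small step (log2 fold change -0.52 ± 0.18, adjusted p = 0.044), and the call was lost on leaving out either stromal library.

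Basement membrane genes split by subunit. Of 16, 12 were higher in stroma and 4 lower (median 3.03), and no member was uncalled. Lama2, the laminin alpha chain of muscle and mesenchyme, had 1258 and 742 CPM in stroma, against 8.2 and 3.27 CPM in luminal and 37.2 and 13.5 CPM in basal cells (log2 fold change 6.4 ± 0.40, adjusted p = 7.6e-08). Nid1, nidogen, which links laminin with collagen IV, had 2430 and 1881 CPM in stroma, against 24.4 and 13.3 CPM in luminal and 179 and 116 CPM in basal cells (log2 fold change 5.36 ± 0.27, adjusted p = 8.8e-10). Hspg2, perlecan, had 546 and 411 CPM in stroma, against 12.2 and 17.4 CPM in luminal and 139.5 and 190.4 CPM in basal cells (log2 fold change 3.27 ± 0.21, adjusted p = 7.8e-09). Lama4 and Col15a1 rose by 3.13 ± 0.22 and 5.19 ± 0.27. On the other side stood Lama5, the laminin alpha chain of epithelia, with 11.4 and 36.2 CPM in stroma, against 143 and 209.7 CPM in luminal and 69 and 106 CPM in basal cells (log2 fold change -2.40 ± 0.49, adjusted p = 0.0046). Col4a5 and Col4a6, chains of a network found under epithelia, had log2 fold changes of -1.35 ± 0.20 and -1.80 ± 0.28, while Col4a1 and Col4a2, chains found in most basement membranes, had 3.18 ± 0.23 and 3.06 ± 0.24. Agrn, agrin, was the last of the 4 lower genes (log2 fold change -1.40 ± 0.32, adjusted p = 0.0053). The stroma thus held higher levels of 1 set of chains and lower levels of another within the same families, in both pools.

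Matrix proteases and their inhibitors rose in all 17 measured cases (median 3.82). Adamts5, which cuts aggrecan and versican, had 558 and 309.7 CPM in stroma, against 4.19 and 3.64 CPM in luminal and 38.1 and 31.9 CPM in basal cells (log2 fold change 5.21 ± 0.25, adjusted p = 5.9e-10). Mmp19 had 78.3 and 79.4 CPM in stroma, against 0.763 and 0.909 CPM in luminal and 6.0 and 3.75 CPM in basal cells (log2 fold change 5.30 ± 0.26, adjusted p = 6.5e-10). Mmp3, stromelysin, had 107 and 38.5 CPM in stroma, against 0.953 and 0 CPM in luminal and 1.2 and 0.905 CPM in basal cells (log2 fold change 6.69 ± 0.59, adjusted p = 6.2e-06). Mmp3 was higher in pool A1 than in A2, while Mmp19 was level between them. Among the inhibitors Timp2 rose by 3.34 ± 0.27 and Timp3 by 2.42 ± 0.23 on the log2 scale, and Timp1, with 2.7 and 8.47 CPM in stroma, against 1.33 and 3.09 CPM in luminal and 1.2 and 2.2 CPM in basal cells, was near the threshold (log2 fold change 1.46 ± 0.51, adjusted p = 0.046). Mmp23 and Mmp11, a stromelysin of stromal cells next to epithelium, rose by 3.82 ± 0.46 and 4.63 ± 0.60. Plat, the tissue plasminogen activator, had 291 and 234 CPM in stroma, against 6.67 and 8.18 CPM in luminal and 67.2 and 59.4 CPM in basal cells (log2 fold change 3.60 ± 0.22, adjusted p = 4.6e-09).

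**Figure D3:**
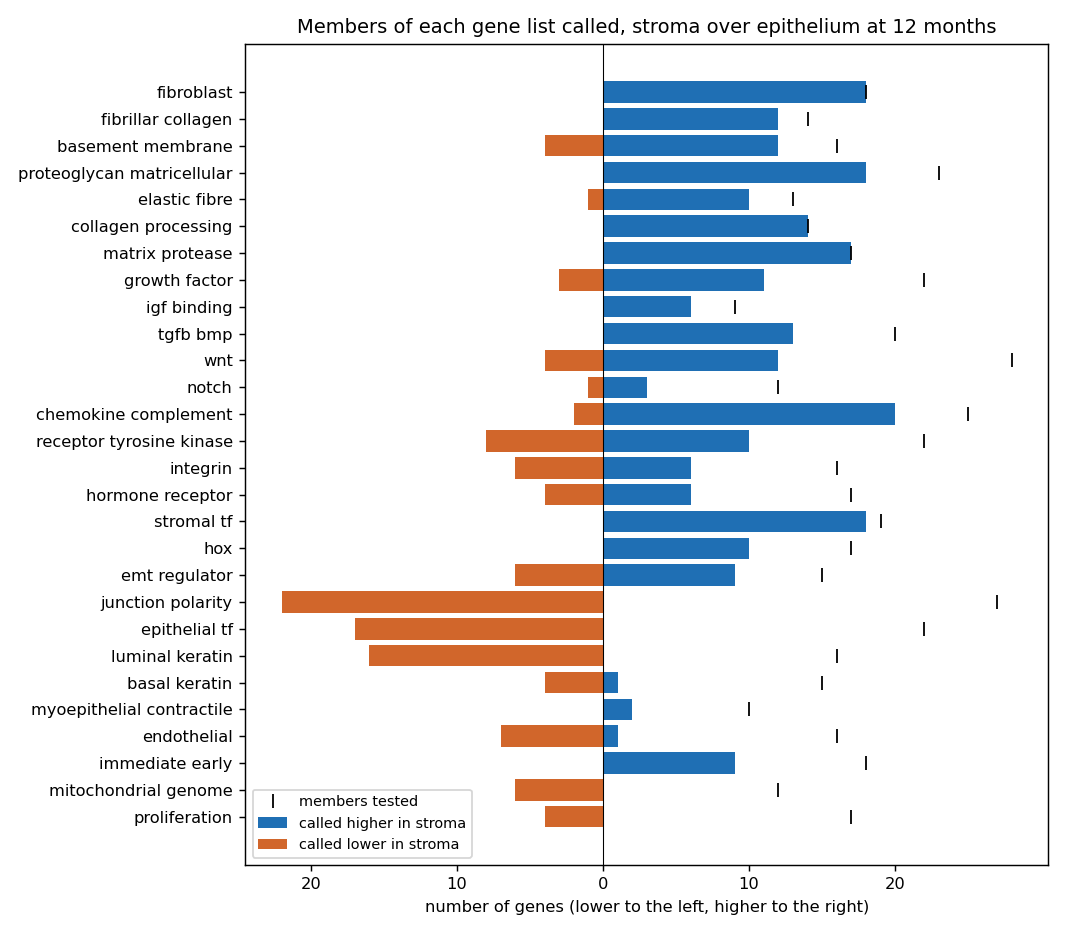
Number of members called higher (right) and lower (left) in stroma than in epithelium at 12 months for 28 gene lists, with a tick at the number of members tested. All 18 fibroblast genes, 14 collagen-processing genes and 17 proteases or inhibitors are to the right, and 22 of 27 junction and polarity genes and 16 of 16 luminal genes are to the left.

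Signals sent by the stroma were more mixed. Of 22 growth factors 11 rose and 3 fell (median 1.08), beside 15.7% and 10.2% of all genes tested. Fgf10, which drives budding of the mammary epithelium in the embryo, had 25 and 19.2 CPM in stroma, against 0 and 0.182 CPM in luminal and 0.30 and 0.517 CPM in basal cells (log2 fold change 5.57 ± 0.56, adjusted p = 5.9e-06 over basal cells). Igf1, insulin-like growth factor, had 319.7 and 294 CPM in stroma, against 4.58 and 4.18 CPM in luminal and 25.2 and 11.8 CPM in basal cells (log2 fold change 5.11 ± 0.26, adjusted p = 8.9e-10). Fgf7 had 81.9 and 52.3 CPM in stroma, against 0.763 and 1.09 CPM in luminal and 4.2 and 0.905 CPM in basal cells (log2 fold change 5.56 ± 0.44, adjusted p = 2.8e-07). Both stromal libraries were above all epithelial ones for these genes. Hgf, known as a factor from stroma that acts on epithelial Met, had 31.9 and 44.1 CPM in stroma, against 0.953 and 0.182 CPM in luminal and 62.4 and 47.6 CPM in basal cells. It was not called against basal cells (log2 fold change -0.53 ± 0.41, adjusted p = 0.44). The call against the epithelium (log2 fold change 2.75 ± 0.45, adjusted p = 4.8e-04) came with low luminal levels. The 3 that fell were Pdgfa, Hbegf and Tgfa, the last 2 being ligands of the EGF receptor, with log2 fold changes of -1.35 ± 0.43, -1.35 ± 0.28 and -1.80 ± 0.41. Pdgfa was not called with the pool as a replicate block (-1.31, adjusted p = 0.058). Without the stromal library of A2 the list counted 9 higher and 6 lower, and without that of A1 10 higher and 1 lower.

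The receptors were divided between the compartments. Of all genes tested, 15.7% were called higher in stroma than in the epithelium and 10.2% lower. Of 22 receptor tyrosine kinases 10 rose and 8 fell, with 5 lower without the stromal library of A1. Ddr2, a collagen receptor of mesenchymal cells, had 742 and 592 CPM in stroma, against 4.77 and 4.91 CPM in luminal and 35.4 and 23.7 CPM in basal cells (log2 fold change 5.81 ± 0.23, adjusted p = 1.3e-10), whereas Ddr1, its epithelial relative, had 2.85 and 7.24 CPM in stroma, against 22.7 and 14.5 CPM in luminal and 19.8 and 15.6 CPM in basal cells (log2 fold change -1.86 ± 0.39, adjusted p = 0.0019). Egfr had 858 and 708 CPM in stroma, against 90 and 62.5 CPM in luminal and 306 and 178 CPM in basal cells (log2 fold change 2.53 ± 0.24, adjusted p = 8.4e-07), while its relatives Erbb2, Erbb3 and Erbb4 were lower, at -1.20 ± 0.26, -1.77 ± 0.42 and -2.50 ± 0.46 on the log2 scale. Over basal cells alone Erbb2 and Erbb3 were not called (log2 fold changes -0.73 and -0.62, adjusted p = 0.10 and 0.40). Ligands Hbegf and Tgfa were thus lower and the receptor gene Egfr higher in stroma. Fgfr2, whose epithelial form answers Fgf7 and Fgf10, had 26.8 and 116 CPM in stroma, against 422 and 415 CPM in luminal and 272 and 242 CPM in basal cells (log2 fold change -2.21 ± 0.49, adjusted p = 0.007). The receptor genes Axl and Ntrk2 rose by 4.42 ± 0.23 and 5.44 ± 0.37. Kit fell, with 17.7 and 32 CPM in stroma, against 198 and 178 CPM in luminal and 60 and 56.3 CPM in basal cells (log2 fold change -2.08 ± 0.27, adjusted p = 2.1e-05). Integrins gave 6 higher and 6 lower of 16. Itga11, the fibroblast receptor for fibrillar collagen, had 155 and 108 CPM in stroma, against 0.953 and 0.545 CPM in luminal and 7.2 and 2.07 CPM in basal cells (log2 fold change 6.21 ± 0.47, adjusted p = 7.6e-07). Itga5, of the fibronectin receptor, rose by 2.26 ± 0.20. Itgb6, of an epithelial integrin that activates TGF-beta, had 2.25 and 6.18 CPM in stroma, against 46.9 and 52.5 CPM in luminal and 10.5 and 14.5 CPM in basal cells (log2 fold change -2.59 ± 0.38, adjusted p = 8.7e-05).

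In the TGF-beta and BMP family 13 of 20 genes rose and none fell (median 2.0). Gdf10, a ligand of the family also called BMP3b, had 86 and 96.9 CPM in stroma, against 0.191 and 0.364 CPM in luminal and 3.6 and 0.517 CPM in basal cells (log2 fold change 5.81 ± 0.50, adjusted p = 1.6e-06 over basal cells). Tgfbr2, the type II receptor, had 443 and 449 CPM in stroma, against 54.7 and 49.8 CPM in luminal and 61.5 and 68.5 CPM in basal cells (log2 fold change 2.93 ± 0.17, adjusted p = 2.9e-09). Fstl1, a follistatin-like secreted protein, had 1667 and 1394 CPM in stroma, against 29.4 and 13.1 CPM in luminal and 229 and 233 CPM in basal cells (log2 fold change 4.45 ± 0.27, adjusted p = 4.9e-09). The ligand genes Tgfb1 and Tgfb3 were not called, at log2 fold changes of -0.22 ± 0.29 and -0.35 ± 0.18. Insulin-like growth factor binding proteins rose in 6 of 9 genes on their list (median 2.45). Igfbp6 had 99.3 and 107 CPM in stroma, against 0.763 and 0.364 CPM in luminal and 3.3 and 5.43 CPM in basal cells (log2 fold change 5.98 ± 0.27, adjusted p = 3.3e-10). Igfbp4, Igfbp3 and Igfbp7 rose by 3.22 ± 0.20, 3.73 ± 0.39 and 2.45 ± 0.34 on the log2 scale. Igfbp7 was not called over basal cells (log2 fold change 0.79, adjusted p = 0.21).

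Of 28 genes of the Wnt pathway 12 rose and 4 fell (median 1.11), with 2 lower without the stromal library of A1. Sfrp4, Sfrp2 and Dkk2, secreted inhibitors of the pathway, were among the rises. Sfrp4 had 178 and 230.1 CPM in stroma, against 1.33 and 2.0 CPM in luminal and 16.8 and 9.31 CPM in basal cells (log2 fold change 5.46 ± 0.29, adjusted p = 2.0e-09). Sfrp2 had 249 and 215 CPM in stroma, against 6.48 and 2.73 CPM in luminal and 24.9 and 16.2 CPM in basal cells (log2 fold change 4.59 ± 0.31, adjusted p = 4.5e-08). Dkk2 had 31.5 and 14.8 CPM in stroma, against 0.191 and 0.182 CPM in luminal and 1.5 and 1.03 CPM in basal cells (log2 fold change 4.24 ± 0.54, adjusted p = 5.9e-05 over basal cells). These 3 genes were above every epithelial library in both pools. The ligands divided against the epithelium. Wnt2, Wnt9a and Wnt11 were higher in stroma (3.95 ± 0.84 and 2.01 ± 0.59 over basal cells for Wnt2 and Wnt9a, and 2.29 ± 0.37 over the epithelium for Wnt11). Wnt4, Wnt5b and Wnt7b were lower (-2.01 ± 0.53, -2.22 ± 0.46 and -2.51 ± 0.48 over the epithelium). Over basal cells alone Wnt11, Wnt4 and Wnt7b were not called (log2 fold changes 0.48, -0.91 and -1.38, adjusted p = 0.47, 0.34 and 0.098). Axin2, a target gene of the pathway, had 42.2 and 29 CPM in stroma, against 0.953 and 2.91 CPM in luminal and 11.7 and 12 CPM in basal cells (log2 fold change 2.88 ± 0.43, adjusted p = 1.6e-04). Notch genes gave 3 higher and 1 lower of 12, beside 15.7% and 10.2% of all genes tested, and the lower count was 2 on leaving out either stromal library. Notch2 was higher (log2 fold change 1.66 ± 0.21, adjusted p = 1.8e-05) and Notch1 lower (log2 fold change -0.86 ± 0.20, adjusted p = 0.0039).

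Chemokines, cytokines and complement rose in 20 of 25 cases and fell in 2 (median 3.64). Ccl2, which draws monocytes, had 196 and 151 CPM in stroma, against 3.05 and 1.82 CPM in luminal and 33.3 and 16.6 CPM in basal cells (log2 fold change 4.49 ± 0.27, adjusted p = 4.0e-09). C3, the central complement component, had 3486 and 2260 CPM in stroma, against 219 and 348 CPM in luminal and 281 and 287 CPM in basal cells (log2 fold change 3.34 ± 0.26, adjusted p = 8.4e-08). Serping1, the inhibitor of C1, had 3189 and 2032 CPM in stroma, against 33.2 and 16.9 CPM in luminal and 167 and 96.1 CPM in basal cells (log2 fold change 5.51 ± 0.30, adjusted p = 1.8e-09). C3 and Serping1 were higher in the stromal library of A1 than in that of A2. Lif and Cx3cl1 were the members that fell (-2.37 ± 0.31 and -1.0 ± 0.25), the call of Cx3cl1 being lost without the stromal library of A1. Cxcl12, a chemokine of stromal niches, was no lower in either basal library than in stroma, with 134 and 153 CPM in stroma, against 9.92 and 5.27 CPM in luminal and 233 and 171 CPM in basal cells (log2 fold change 1.88 ± 0.27, adjusted p = 1.0e-04 against the epithelium, and -0.49 ± 0.31 on the log2 scale against basal cells). Of 14 genes known from the secretions of senescent cells 10 rose and none fell, among them Cxcl1 (2.43 ± 0.27), and the cell cycle inhibitor Cdkn1a was not called (0.40 ± 0.23).

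Transcription factors separated the compartments. Of 19 mesenchymal factors 18 rose (median 4.43), Meox1 being the exception (log2 fold change 1.25 ± 0.69, adjusted p = 0.21). Prrx1, a homeobox gene of limb and skin mesenchyme, had 433 and 359.6 CPM in stroma, against 3.05 and 2.36 CPM in luminal and 54.3 and 39.6 CPM in basal cells (log2 fold change 5.14 ± 0.21, adjusted p = 1.3e-10). Ebf2 had 332 and 297 CPM in stroma, against 2.48 and 1.09 CPM in luminal and 33.9 and 17.3 CPM in basal cells (log2 fold change 5.55 ± 0.28, adjusted p = 9.5e-10). Osr2 had 70.7 and 79.3 CPM in stroma, against 0.191 and 0.182 CPM in luminal and 1.2 and 0.776 CPM in basal cells (log2 fold change 6.32 ± 0.58, adjusted p = 3.2e-06 over basal cells). Tbx15 had 85.1 and 49.8 CPM in stroma, against 0.953 and 0.727 CPM in luminal and 2.4 and 2.07 CPM in basal cells (log2 fold change 5.62 ± 0.32, adjusted p = 2.9e-09). In all 4 the epithelial levels were a small part of the stromal ones. Of 17 Hox genes 10 rose and none fell (median 4.10). These genes give position along the body axis. Hoxc8 had 25.8 and 18.9 CPM in stroma, against 0.572 and 0 CPM in luminal and 1.5 and 2.2 CPM in basal cells (log2 fold change 3.52 ± 0.51, adjusted p = 1.8e-04 over basal cells). Hoxc10 had 28.6 and 16.6 CPM in stroma, against 0 and 0 CPM in luminal and 0.90 and 3.36 CPM in basal cells, and Hoxc4 and Hoxa5 had 12.6 and 10.2 CPM and 7.04 and 6.71 CPM in stroma, against 0 and 0 CPM and 0.191 and 0 CPM in luminal cells. On the epithelial side 17 of 22 factors fell and none rose (median -2.28). Sox9 had 68.9 and 107 CPM in stroma, against 452 and 294 CPM in luminal and 424 and 320.2 CPM in basal cells (log2 fold change -2.09 ± 0.27, adjusted p = 2.2e-05). Klf5 had 25.8 and 45.9 CPM in stroma, against 182 and 122 CPM in luminal and 167 and 122 CPM in basal cells (log2 fold change -2.05 ± 0.27, adjusted p = 3.3e-05). Gata3, a master factor of luminal cells, had 3.89 and 14.7 CPM in stroma, against 105 and 132 CPM in luminal and 54 and 59.1 CPM in basal cells (log2 fold change -3.16 ± 0.43, adjusted p = 1.4e-04). The stromal library of A2 was above that of A1 for all 3.

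Genes of the epithelial-mesenchymal switch moved to both sides by role. Of 15, 9 rose and 6 fell. Zeb2, a repressor of epithelial genes, had 577 and 478 CPM in stroma, against 5.53 and 7.63 CPM in luminal and 65.7 and 50.4 CPM in basal cells (log2 fold change 4.75 ± 0.24, adjusted p = 9.4e-10). Zeb1 had 249.7 and 199 CPM in stroma, against 7.44 and 2.54 CPM in luminal and 45 and 40 CPM in basal cells (log2 fold change 3.95 ± 0.34, adjusted p = 1.9e-06). Snai1 had 18.3 and 14.7 CPM in stroma, against 2.29 and 2.0 CPM in luminal and 4.8 and 6.47 CPM in basal cells (log2 fold change 2.23 ± 0.40, adjusted p = 5.0e-04). Tcf4 rose by 2.23 ± 0.18. Snai2 stood between the fractions, with 17.5 and 22.4 CPM in stroma, against 1.14 and 0.727 CPM in luminal and 57.6 and 49.7 CPM in basal cells. Stroma was 4.39 ± 0.46 above luminal cells (adjusted p = 2.4e-06) and differed from basal cells by -1.42 ± 0.33 (adjusted p = 0.0067) on the log2 scale, so the rise against their mean (log2 fold change 1.48 ± 0.33, adjusted p = 0.0029) describes neither fraction. The difference from basal cells was -1.61 (adjusted p = 0.014) without the stromal library of A2, and without that of A1 the call was lost (-1.25, adjusted p = 0.079). The 6 that fell were Grhl1, Grhl2, Grhl3, Ovol1, Esrp1 and Esrp2, which maintain or splice for the epithelial state. Esrp1 had 7.94 and 20.7 CPM in stroma, against 152 and 134 CPM in luminal and 69.9 and 68.8 CPM in basal cells (log2 fold change -2.81 ± 0.33, adjusted p = 1.5e-05). Grhl3 had no count in either stromal library and 5.34 and 2.0 CPM in luminal and 0.90 and 2.07 CPM in basal cells.

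Cell junction genes were lower in stroma. Of 27 genes of junctions and polarity 22 fell and none rose, with a median log2 fold change of -2.03, beside 10.2% and -0.03 for all genes tested. Without the stromal library of A2 the count was 23, and without that of A1 it was 15. Cdh1, E-cadherin, had 39.2 and 101 CPM in stroma, against 696 and 574 CPM in luminal and 305 and 321 CPM in basal cells (log2 fold change -2.67 ± 0.36, adjusted p = 6.2e-05). Dsg2, a desmosomal cadherin, had 13.6 and 25.6 CPM in stroma, against 152 and 153 CPM in luminal and 124 and 105 CPM in basal cells (log2 fold change -2.76 ± 0.28, adjusted p = 1.6e-06). Jup, plakoglobin, had 69.2 and 80 CPM in stroma, against 314 and 235 CPM in luminal and 291 and 186 CPM in basal cells (log2 fold change -1.78 ± 0.23, adjusted p = 2.9e-05). Tjp3, a tight junction scaffold, had 0.30 and 1.06 CPM in stroma, against 12.2 and 13.8 CPM in luminal and 3.9 and 3.36 CPM in basal cells (log2 fold change -3.34 ± 0.56, adjusted p = 2.9e-04). Stromal libraries were the lowest for each. The share of all genes tested called lower than in basal cells was 7.96%. Against basal cells alone 12 of the 27 were lower, 18 without the stromal library of A2 and 9 without that of A1. The tight junction genes Cldn3, Cldn4 and Cldn7 did not pass there (-0.44 ± 0.43, -0.53 ± 0.52 and -0.74 ± 0.50), though Cldn7 did without the library of A2 (-2.0, adjusted p = 0.022). Cldn3 had 3.75 and 7.77 CPM in stroma, against 28.6 and 37.4 CPM in luminal and 5.1 and 9.83 CPM in basal cells. All 16 luminal genes fell (median -2.52), Epcam, on which the cells were sorted, being 1 of them. Krt8 had 38.6 and 43.6 CPM in stroma, against 619 and 475 CPM in luminal and 179 and 165 CPM in basal cells (log2 fold change -2.90 ± 0.33, adjusted p = 1.2e-05). Krt18, Muc1 and Krt19 had log2 fold changes of -2.72 ± 0.32, -2.59 ± 0.33 and -2.42 ± 0.35.

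The upstream sequences of 4 of these genes are shown because the letters CAGGTG, read on either strand as CAGGTG or CACCTG, are those bound by the Snai and Zeb repressors that the stroma carried. They are the 250 bases before the annotated start in RefSeq (GRCm38.p6), 5′ to 3′ on the strand of the gene, with the motif in capitals. Epcam (chr17:87635729-87635978, plus strand) and Tjp3 (chr10:81291582-81291831, minus strand) were lower in stroma, and Col3a1 (chr1:45311288-45311537, plus strand) and Serpinf1 (chr11:75422624-75422873, minus strand) were higher. The RefSeq start of Serpinf1 lies inside the gene as GENCODE gives it.
Epcam: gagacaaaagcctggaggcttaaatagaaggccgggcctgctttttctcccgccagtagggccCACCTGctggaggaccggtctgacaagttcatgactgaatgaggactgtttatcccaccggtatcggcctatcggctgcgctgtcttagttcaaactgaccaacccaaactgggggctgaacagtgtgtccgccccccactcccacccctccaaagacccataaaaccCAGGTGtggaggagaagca
Tjp3: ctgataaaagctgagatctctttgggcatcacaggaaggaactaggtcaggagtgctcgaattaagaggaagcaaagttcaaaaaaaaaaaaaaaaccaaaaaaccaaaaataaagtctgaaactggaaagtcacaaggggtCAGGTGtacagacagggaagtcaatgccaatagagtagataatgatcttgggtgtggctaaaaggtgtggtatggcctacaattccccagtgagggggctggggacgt
Col3a1: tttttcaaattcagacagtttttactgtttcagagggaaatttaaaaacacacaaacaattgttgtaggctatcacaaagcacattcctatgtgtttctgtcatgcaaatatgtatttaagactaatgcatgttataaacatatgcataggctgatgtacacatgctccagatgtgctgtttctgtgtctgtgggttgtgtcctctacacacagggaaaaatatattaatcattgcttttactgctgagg
Serpinf1: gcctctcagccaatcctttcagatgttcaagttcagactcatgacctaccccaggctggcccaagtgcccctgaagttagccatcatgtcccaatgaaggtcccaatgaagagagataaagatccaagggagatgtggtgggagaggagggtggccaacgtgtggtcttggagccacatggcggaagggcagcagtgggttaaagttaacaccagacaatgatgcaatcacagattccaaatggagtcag
The Epcam sequence holds the motif at 187 and at 19 bases before the start and that of Tjp3 at 108 bases, and neither of the others holds it. Tjp3 was chosen among the called junction and switch genes because its window holds the motif, so its match was fixed in advance. The other sequences were chosen without regard to the motif. Among the 10279 tested genes with a promoter in the table, 15.4% had the motif in this window. The share was 24.4% of the 1099 called lower in stroma and 12.7% of the 1597 called higher. Median GC content was 60.8% in both called sets and 60.0% in all. A match of letters is a description and no sign of binding, and no test was made of these shares.

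Stroma was also set against each fraction in turn. It was higher than luminal cells at 2539 genes (16.9%) and lower at 1703 (11.4%), and higher than basal cells at 1370 (9.14%) and lower at 1193 (7.96%). The basal genes in the stromal library of A2 bear on the counts against basal cells and on those against luminal cells. Krt5 and Krt14 stood above both luminal libraries in the stromal library of A2 and below both in that of A1. Above both fractions were 1155 genes (7.71%) and below both 614 (4.1%). For 75 genes stroma lay between them, higher than luminal and lower than basal cells, and for none the other way round. Among the genes given here with a fold over basal cells, the calls of Gria4 and Wnt9a were lost without the stromal library of A2. Those of Col16a1, Duoxa1, Esr1, Fam198a, Fmod, Gimap4, Gria4, Snai2 and Wnt9a were lost without that of A1. The log2 fold changes of Acta2, Col16a1, Aqp7, C1qtnf9 and Fam198a over basal cells were -3.58, -2.20, -6.42, -6.04 and 4.39 without the library of A2.

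**Figure D4:**
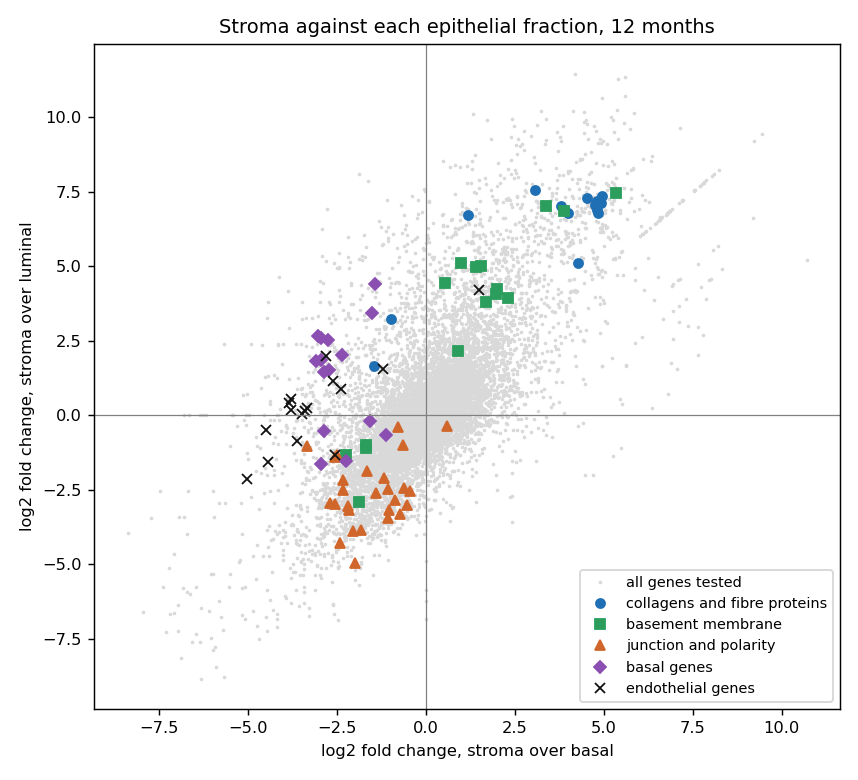
Log2 fold change of stroma over basal cells (horizontal) against that of stroma over luminal cells (vertical) at 12 months for all genes tested, with 5 groups marked. Of the collagens and of the basement membrane genes 12 each lie above 0 on both axes and 26 of 27 junction genes below 0 on both, while all 15 basal genes and all endothelial genes but Tek lie left of 0 on the horizontal axis.

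Genes called against luminal cells but not against basal cells numbered 1309 higher and 1089 lower. Hmcn1, hemicentin, an extracellular matrix protein, was a matrix gene held by basal cells too, with 269 and 199.9 CPM in stroma, against 3.05 and 1.27 CPM in luminal and 148 and 97.5 CPM in basal cells (log2 fold change 6.76 ± 0.53, adjusted p = 7.0e-07 over luminal cells). Pknox2, a homeobox gene, had 15.6 and 18 CPM in stroma, against 0.191 and 0 CPM in luminal and 28.2 and 11.9 CPM in basal cells. Mirg, a long noncoding RNA of the imprinted Dlk1-Dio3 region, had 11.4 and 13.4 CPM in stroma, against 0.191 and 0 CPM in luminal and 3.6 and 5.04 CPM in basal cells. Cyp2j9 had 15.1 and 9.0 CPM in stroma, against 0.191 and 0 CPM in luminal and 7.2 and 4.79 CPM in basal cells, and Papolb had 15.1 and 5.12 CPM in stroma and no count in luminal cells. On the lower side R3hdml had 0 and 0.706 CPM in stroma, against 13.9 and 18.4 CPM in luminal and 0.90 and 1.68 CPM in basal cells (log2 fold change -5.53 ± 0.86, adjusted p = 1.3e-04). Arhgef38 and Ctsr had log2 fold changes of -5.04 ± 0.86 and -5.17 ± 1.15 over luminal cells. Clca1, Il1rn and Alox12e had no more than 3 counts in stroma, and the epithelium exceeded it by ratios of 64.5 (counting interval 11.3 to 2569), 35.6 (9.66 to 298) and 26.4 (8.85 to 130). Il1rn, the interleukin-1 receptor antagonist, had 17 and 4.0 CPM in luminal cells.

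Fewer genes were called against basal cells alone, 215 higher and 504 lower. Bmp3, a BMP family ligand, had 83.4 and 77.5 CPM in stroma, against 42.1 and 57.4 CPM in luminal and 8.1 and 15.9 CPM in basal cells (log2 fold change 2.69 ± 0.35, adjusted p = 6.7e-05 over basal cells), and luminal cells lay between. Rasgrf1, an exchange factor for Ras, had 60.8 and 38.5 CPM in stroma, against 52.4 and 54.7 CPM in luminal and 8.1 and 7.63 CPM in basal cells (log2 fold change 2.66 ± 0.55, adjusted p = 0.0066). Fam198a, Duoxa1 and Gria4 had log2 fold changes of 3.77 ± 1.11, 3.70 ± 0.98 and 2.56 ± 0.79 over basal cells. On the lower side Aqp7, a glycerol channel of fat and capillary cells, had 0.30 and 1.06 CPM in stroma, against 1.33 and 0.364 CPM in luminal and 19.8 and 34 CPM in basal cells (log2 fold change -5.33 ± 0.78, adjusted p = 2.9e-04). Btnl9 had 0.749 and 0.883 CPM in stroma, against 0.572 and 1.45 CPM in luminal and 23.4 and 32.2 CPM in basal cells (log2 fold change -5.07 ± 0.65, adjusted p = 5.5e-05). Mmrn1, of lymphatic vessels and platelets, had 0.449 and 0.53 CPM in stroma, against 0.381 and 0 CPM in luminal and 18.3 and 5.82 CPM in basal cells (log2 fold change -4.54 ± 0.92, adjusted p = 0.0031). Gimap4 and C1qtnf9 had log2 fold changes of -5.05 ± 1.15 and -5.0 ± 0.98. These genes were low in luminal cells and in stroma alike and high in the basal libraries, as were the endothelial genes above.

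Muscle-type genes stood between the fractions. The share of all genes tested called higher than in luminal cells was 16.9%, and 7.96% were called lower than in basal cells. Against the epithelium 15.7% were called higher and 10.2% lower. The 10 contractile genes gave 2 higher and 0 lower against the mean of the epithelium, 5 higher against luminal cells and 6 lower against basal cells. All 10 were lower than in basal cells without the stromal library of A2, and without that of A1 4 were, with 8 higher than in luminal cells. Acta2, smooth muscle actin, had 89.9 and 340 CPM in stroma, against 13.9 and 22.9 CPM in luminal and 886 and 1266 CPM in basal cells (log2 fold change 3.54 ± 0.55, adjusted p = 5.1e-04 over luminal and log2 fold change -2.32 ± 0.51, adjusted p = 0.0094 over basal cells). Without the stromal library of A2 the count against the epithelium was 1 higher and 3 lower, and without that of A1 3 higher and 0 lower.

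Other cells of the stroma were looked for by their markers. Among all genes tested the shares called higher and lower than the epithelium were 15.7% and 10.2%. Of 13 genes of fat cells and their precursors 6 rose and 2 fell, with 1 lower without the stromal library of A1. Their median log2 fold change was 1.76 over the epithelium but 0.04 over basal cells. The 19 genes of the list, tested or not, summed to 1156 and 952 CPM in stroma, against 381 and 247 CPM in luminal and 1265 and 1342 CPM in basal cells. Zfp521 and Zfp423, regulators in fat precursors, rose by 2.48 ± 0.23 and 1.97 ± 0.26 against the epithelium. Zfp423 was not called over basal cells (log2 fold change 0.76, adjusted p = 0.095). Lpl, lipoprotein lipase, had 605 and 386 CPM in stroma, against 36.8 and 10.5 CPM in luminal and 61.8 and 30.9 CPM in basal cells (log2 fold change 3.91 ± 0.42, adjusted p = 4.6e-05). Lipe, hormone-sensitive lipase, fell (log2 fold change -2.14 ± 0.30, adjusted p = 4.7e-05). Adipoq, Lep, Plin1, Cidec, Cfd and Retn, made by mature fat cells, were too low to be tested. Fabp4 was highest in the basal libraries, with 71.8 and 107 CPM in stroma, against 29.2 and 17.6 CPM in luminal and 336 and 488 CPM in basal cells. Pericyte genes gave 5 higher of 11, led by Abcc9 with 158 and 152 CPM in stroma, against 3.62 and 3.27 CPM in luminal and 42.9 and 54.7 CPM in basal cells (log2 fold change 3.57 ± 0.31, adjusted p = 1.0e-06), while Rgs5, another pericyte marker, overlapped between stroma and basal cells (288 and 443 CPM in stroma, against 66 and 34.9 CPM in luminal and 522 and 424 CPM in basal cells).

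Endothelial genes were mostly not higher in this stromal fraction. Of 16, 1 rose and 7 fell against the epithelium, with 8 lower without the stromal library of A2 and 3 without that of A1. The riser was Tek, the angiopoietin receptor, with 98.1 and 70.3 CPM in stroma, against 5.91 and 3.27 CPM in luminal and 24 and 35.6 CPM in basal cells (log2 fold change 2.84 ± 0.30, adjusted p = 3.0e-06). Vwf, Erg and Emcn had log2 fold changes of -1.95 ± 0.37, -2.50 ± 0.50 and -1.82 ± 0.43. The 6 lymphatic genes gave no call against the epithelium and 5 lower calls against basal cells (4 without the stromal library of A2 and 2 without that of A1). Prox1, the lymphatic factor, was the member not called (log2 fold change -0.46 ± 0.56, adjusted p = 0.64). The 8 general leukocyte genes, of which 4 were tested, summed to 5.69 and 7.24 CPM in stroma, against 40.8 and 27.4 CPM in luminal and 12.6 and 14.7 CPM in basal cells. Most of the luminal sum was that of Cytip, at 38.3 and 25.99 CPM in luminal cells. Cytip had 3.75 and 4.06 CPM in stroma and 8.1 and 7.37 CPM in basal cells. The higher luminal sum thus describes Cytip and not the list as a whole. Cytip was lower in stroma, and so was H2-Ab1 among 7 dendritic cell genes, a call lost on leaving out either stromal library. Ptprc, the pan-leukocyte CD45, had 0.899 and 0.883 CPM in stroma, against 0 and 0.545 CPM in luminal and 1.5 and 2.72 CPM in basal cells. Of 18 macrophage genes 11 were tested, 1 higher (Mertk, log2 fold change 1.36 ± 0.35, adjusted p = 0.0099) and 1 lower (Cd14, log2 fold change -2.21 ± 0.34, adjusted p = 1.5e-04), no more than the shares of all genes. The call of Mertk was lost without the stromal library of A1, and 2 were lower without that of A2. Csf1r, which macrophages need to live, had 0.15 and 0 CPM in stroma, against 1.14 and 0.545 CPM in luminal and 0.30 and 1.03 CPM in basal cells. T and natural killer, B and plasma, red and mast cell lists had 1, 2, 1 and 0 members tested, and Cd3e, Ighm, Sdc1 and Alas2 were not called. Skeletal muscle genes were called higher in 4 of 7 cases at low levels, such as Tnnt3 with 7.64 and 6.89 CPM in stroma, against 0 and 0.364 CPM in luminal and 0.60 and 0.259 CPM in basal cells (log2 fold change 4.19 ± 0.97, adjusted p = 0.0078 over basal cells). Of 7 Schwann cell genes 2 rose and 1 fell, beside 15.7% and 10.2% of all genes tested. Sox10, also a mammary epithelial factor, was the lower one (log2 fold change -2.23 ± 0.36, adjusted p = 2.7e-04).

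Of 17 hormone receptor genes 6 rose and 4 fell, beside 15.7% and 10.2% of all genes tested. Esr1, the oestrogen receptor, was not called against the epithelium, with 67.9 and 53.1 CPM in stroma, against 82.2 and 82.2 CPM in luminal and 29.1 and 19.4 CPM in basal cells (log2 fold change 0.45 ± 0.27, adjusted p = 0.24). It was not called against luminal cells (-0.44 ± 0.31) and was above basal ones (log2 fold change 1.34 ± 0.32, adjusted p = 0.0093). Pgr, the progesterone receptor, had 7.19 and 56.3 CPM in stroma, against 58.2 and 309 CPM in luminal and 20.1 and 47.3 CPM in basal cells, with higher levels in pool A2 than in A1 in every fraction (log2 fold change -1.33 ± 0.95, adjusted p = 0.37). Paired by pool with a replicate block it was lower in stroma (-1.57 on the log2 scale, adjusted p = 0.0017). Ghr, Nr3c1 and Thra, the receptors for growth hormone, glucocorticoid and thyroid hormone, rose by 1.56 ± 0.23, 1.28 ± 0.23 and 1.23 ± 0.26. Prlr, the prolactin receptor, was lower than in the epithelium (log2 fold change -2.69 ± 0.55, adjusted p = 0.004). It was not called over basal cells (log2 fold change -1.34, adjusted p = 0.14). Over the hormone-sensing luminal list 2 rose and 4 fell of 11, and over the secretory list 1 rose and 8 fell of 17. Leaving out the stromal library of A2, these counts were 1 and 4, and 1 and 5. Without that of A1 they were 2 and 2, and 0 and 6. Elf5, a factor of secretory luminal cells, had 3.89 and 9.53 CPM in stroma, against 99.5 and 74.7 CPM in luminal and 28.5 and 18.4 CPM in basal cells (log2 fold change -2.75 ± 0.39, adjusted p = 8.0e-05). The caseins, which differed so widely between pools, were mostly not called, Csn2 at log2 fold change -3.79 ± 2.67, adjusted p = 0.37.

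Transcripts of the mitochondrial genome were lower in stroma in 6 of 12 cases (median -1.07). Of all genes tested, 10.2% were called lower and 15.7% higher. Fewer of all genes were called without either stromal library, most clearly without that of A1, and list counts below are to be read beside that loss. The 13 genes on the list, 1 of them not tested, summed to 8528 and 17795 CPM in stroma, against 35779 and 36171 CPM in luminal and 21469 and 25924 CPM in basal cells. The count was 10 lower without the stromal library of A2 and 0 without that of A1. Immediate early genes, which respond within minutes to stimuli and to tissue handling, were higher in 9 of 18 cases and lower in none (median 0.68). Egr1 had 16561 and 11141 CPM in stroma, against 3063 and 3918 CPM in luminal and 4782 and 4333 CPM in basal cells (log2 fold change 1.80 ± 0.25, adjusted p = 5.9e-05). Fos and Dusp1 rose by 1.37 ± 0.23 and 1.48 ± 0.27. The count of immediate early genes was 4 without the library of A1. Cell cycle genes gave 4 lower of 17, Mcm6, Ccnb1, Cdk1 and Aurka, and none higher, with 2 lower without the library of A2 and 0 without that of A1. Mki67, a mark of cycling cells, had 5.24 and 23.8 CPM in stroma, against 11.4 and 199 CPM in luminal and 18.3 and 200.2 CPM in basal cells and was not called (log2 fold change -2.91 ± 1.52, adjusted p = 0.23). Its levels parted pool A2 from A1 in every fraction. With the pool as a replicate block, which sets fractions of the same mice against each other, Mki67 was lower in stroma (log2 fold change -2.41, adjusted p = 0.0021 in edgeR).

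The same contrast was made at 3 months in the wild-type pools F79 and F81, to ask whether the differences between stroma and epithelium were those of the younger gland. At 3 months 2377 genes were higher (15.9%) and 1553 lower (10.4%) in stroma. Of the 2351 genes higher at 12 months 1819 were also higher at 3 months, which is 77.4% of the 12-month and 76.5% of the 3-month list. Of the 1530 lower genes 863 were shared, 56.4% of the 12-month and 55.6% of the 3-month list. Of the 12-month calls not made at 3 months, 471 of 528 higher and 607 of 667 lower genes had the same sign there. Col3a1 had a log2 fold change of 6.15 ± 0.31 at 12 months and 5.93 ± 0.31 at 3 months, and Epcam -2.35 ± 0.36 and -2.12 ± 0.36.

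**Figure D5:**
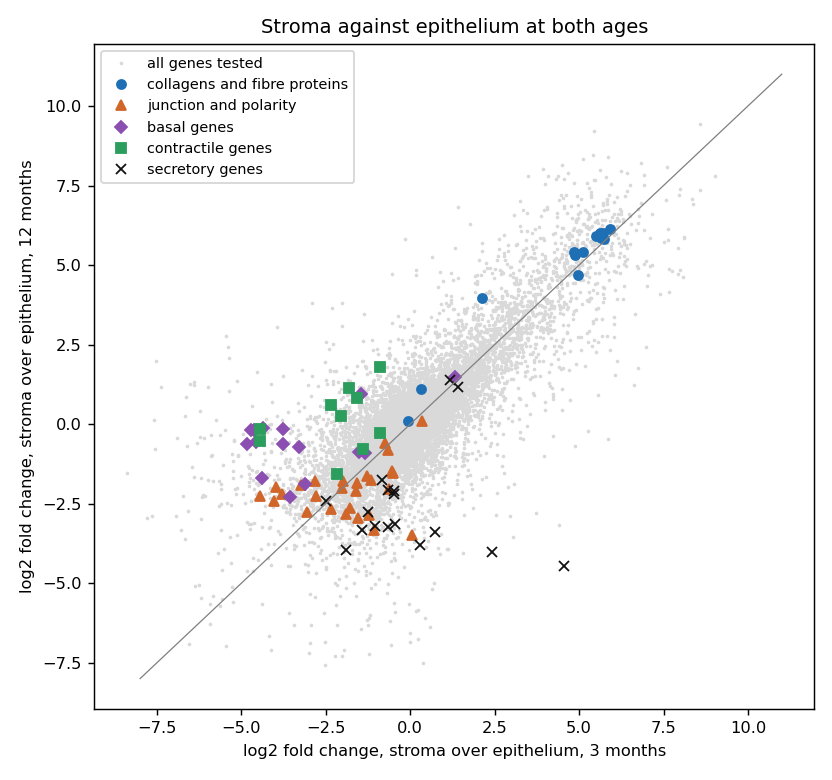
Log2 fold change of stroma over epithelium at 3 months (horizontal) against 12 months (vertical) for all genes tested, with the line of equal values and 5 groups marked. All 15 basal and 10 contractile genes lie above the line and secretory genes mostly below it, and no gene passed the test of the change between ages.

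The change between ages was tested directly, as the difference between the 12-month and the 3-month contrast. No gene was called higher (0%) or lower (0%) by edgeR after adjustment. At an unadjusted p under 0.05 there were 1260 genes, and the smallest adjusted p was 0.125. DESeq2 called 93. Age is carried by different pools of mice, so it cannot be told apart from any other difference between the pools. The genes with the smallest p are given as values. H19, an imprinted long noncoding RNA active in the fetus, had 8.99 and 9.0 CPM in stroma at 12 months and 48.9 and 41.9 CPM at 3 months. Its epithelial levels at 12 months were 3.05 and 10.9 CPM in luminal and 3.3 and 3.1 CPM in basal cells, and the change in log2 fold change was -4.64 ± 0.71, adjusted p = 0.13. Srxn1, which repairs oxidised peroxiredoxin, gave -2.19 ± 0.36, adjusted p = 0.13, and Mmrn2, of endothelial matrix, -3.41 ± 0.64, adjusted p = 0.14. On the other side Mrvi1, of smooth muscle, gave 2.07 ± 0.36, adjusted p = 0.14 and Ntn4, a netrin of basement membranes, 2.21 ± 0.39, adjusted p = 0.14. Zfp365 had 4.19 and 6.18 CPM in stroma, against 0 and 0 CPM in luminal and 18.9 and 19.4 CPM in basal cells at 12 months, and its 3-month stromal libraries had 1.28 and 1.75 CPM, against 0.805 and 2.38 CPM in luminal and 28.5 and 19.5 CPM in basal cells.

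Among the called genes 4 were higher in stroma than the mean of the epithelium at 12 months and lower than it at 3 months. They were picked after their values were seen. They are Igfbp5, Myh11, Zfp365 and Gm37180. Gm37180 had 1.35 and 2.12 CPM in stroma, against 0 and 0 CPM in luminal and 6.30 and 2.85 CPM in basal cells at 12 months. For Myh11, Zfp365 and Gm37180 both stromal libraries of 12 months lay above the luminal and below the basal ones. Their rise against the mean of the epithelium thus describes neither fraction. Igfbp5 had 3498 and 3573 CPM in stroma, against 2733 and 1643 CPM in luminal and 2310 and 2049 CPM in basal cells at 12 months. At 3 months its stromal libraries had 2424 and 2298 CPM, against 4272 and 3584 CPM in the luminal and 5161 and 4143 CPM in the basal ones. The log2 fold changes were 0.70 ± 0.24 and -0.86 ± 0.26, and the 12-month call was lost on leaving out either stromal library. Myh11, the heavy chain of smooth muscle myosin, had 229 and 522 CPM in stroma, against 27.6 and 17.8 CPM in luminal and 1312 and 1283 CPM in basal cells at 12 months. At 3 months it had 218 and 130 CPM in stroma, against 94.6 and 186 CPM in luminal and 3139 and 2113 CPM in basal cells (1.13 ± 0.36 at 12 months and -1.80 ± 0.40 at 3 months). Myh11 is among the contractile genes that the stromal library of A2 carried, and the part of that library in its change was not tested. Its 12-month call was lost with the pool as a replicate block (1.08, adjusted p = 0.10) and without the stromal library of A2. For the list of 15 basal genes the counts were 1 higher and 4 lower at 12 months and 1 higher and 9 lower at 3 months, where the stromal libraries had summed levels of 232 and 229 CPM, against 5238 and 4600 CPM in the basal ones.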

How the data were processed

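RNA of wild-type mammary fractions was measured by sequencing of amplified cDNA (5 ng of RNA per library, per the labels' protocols). The authors deposited raw read counts per Ensembl gene for the 26 libraries. Per the submitters' processing notes TopHat2 2.0.13, HTSeq and the build GRCm38 were used, while for the counting settings, the use of strand and the annotation the entry is: not given in the sources used here. Reads of overlapping, antisense or near-identical genes may therefore have been shared.

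The fit held the 12 wild-type libraries in 6 groups of 2 by fraction and age, so that all groups share an estimate of the spread. Libraries null for Snai2 were left out because 2 of them, of pool A5, go against their fraction labels. Genes were kept by edgeR's filterByExpr (10 counts, 15 in all), which left 14990 of 45706, and were tested with TMM scaling and the robust quasi-likelihood test of edgeR 4.0.16 in R 4.3.3 with Benjamini-Hochberg adjustment. The stromal mean was contrasted with the mean of the luminal and basal means, on the log2 scale. Standard errors come from the fold change and the F statistic. Each library is a pool of 3 mice and p-values measure the spread between 2 pools per group. Fractions of a pool come from the same mice and are paired by design. At 12 months the deviations of same-pool libraries correlated across genes at 0.313 for luminal with basal, 0.116 for luminal with stromal and 0.139 for basal with stromal.

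On simulated counts for the contrast of stroma over epithelium, 100 of 100 genes changed by 2 and 100 of 100 changed by 3 on the log2 scale were called, with 14 calls among 14790 unchanged genes. The changed genes averaged over 10 CPM, and each gene otherwise had the same mean in every fraction, age and pool. The simulation therefore does not cover low genes, shared mice or stromal libraries that differ from each other. The comparison, its members and the gene lists were chosen with earlier results of these data known. Genes named without a list are the 10 largest rises and 10 largest falls among called genes without overlap of libraries whose higher side averaged at least 10 CPM, numbered gene models left out, and the 5 largest each way against a single fraction. From each list up to 4 called members of smallest p are named, with further members added after their values were seen. Some members are not reported here. Placing genes with no count in the stromal libraries, or in all 4 epithelial ones, at a floor of 3 counts changed no list median. Genes empty in the luminal or the basal libraries alone were not placed at it, so their effect on the medians was not tested. Coordinates are those of GENCODE vM21 on GRCm38, which matched 45143 gene identifiers, and 125 symbols occur more than once. Promoters are from RefSeq and matched 10284 of the tested genes. Alternatives tried were RLE scaling, no filter and a stricter filter (1 CPM, 30 counts), DESeq2 1.42.0, other sets of libraries, the pool as a block, removal of mitochondrial genes and leaving out each library.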

Additional observations from a re-analysis of the deposited data

How the results depend on the processing

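Stroma and epithelium differed at 3881 genes. RLE scaling, no low-count filter, a stricter filter, DESeq2, the 12-month libraries alone and removal of mitochondrial genes gave 3180 to 4282 calls. A fit to all 26 libraries gave 1405 calls (71.6% of them higher in stroma, against 60.6%), and a fit without 2 libraries of pool A5 gave 2418. The same 2 fits gave 1548 and 2698 against luminal cells, where the count was 4242, and 44 and 1080 against basal cells, where it was 2563. The cause was not tested. Leaving out 1 library at a time gave 2280 (without stromal A1) to 3631 calls against the epithelium, 2941 to 4269 against luminal cells and 1219 (without stromal A1, with 1429 without basal A2) to 2678 against basal cells. For the change between ages the count was 0, against 264 with no low-count filter, 93 with DESeq2 and 0 to 88 (without stromal A1, 86 of them higher) on leaving out a library. With the pool as a replicate block the counts were 4191 against the epithelium, 4598 against luminal cells, 2858 against basal cells and 0 for the change between ages, and beside the calls given above it ended those of Gm37180 and Rasgrf1 against the epithelium and added those of Clca1 and Fmod.

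Of 202 genes named here and called against the epithelium, 128 kept the call under every alternative run. The fit to all 26 libraries ended the most calls, 69, and the fit without 2 libraries of pool A5 ended 27. Without the stromal library of A1, 33 calls were lost, those of Agrn, Alox12e, Aqp7, Arhgef38, Aurka, Btnl9, C1qtnf9, Ccnb1, Cdk1, Cldn3, Cldn4, Ctsr, Cx3cl1, Duoxa1, Emcn, Erbb2, Erbb3, Fam198a, Gm37180, Grhl3, Gria4, H2-Ab1, Igfbp5, Il1rn, Ltbp3, Mcm6, Mertk, Pdgfa, Pecam1, Plod1, Rasgrf1, Tgfa and Wnt4. Without that of A2, 14 were lost, those of Aurka, Ccnb1, Cdk1, Ctsr, Gm37180, Gria4, H2-Ab1, Igfbp5, Ltbp3, Myh11, Notch1, Pecam1, S100a4 and Timp1. Signs turned, among uncalled genes only, on leaving out 1 library, where the log2 fold change ran from -0.65 to 1.27 for Acta2, -0.62 to 0.58 for Col16a1, -0.45 to 0.13 for Fabp4, -2.29 to 2.68 for Ighm, -4.50 to 0.79 for Krt14, -5.85 to 0.88 for Krt5, -0.48 to 3.83 for Meox1, -2.09 to 0.10 for Mmrn1, -0.29 to 2.18 for Ptprc and -0.60 to 0.079 for Tgfb1. Most members of the T, B, mast and red cell lists were too low to be tested at this depth.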
